A study of Mus musculus with 8 samples.

Results

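Transcripts of 8 genes of the insulin-like growth factor (IGF) system were followed in single endothelial cells of the adult mouse heart, with and without myocardial infarction (MI): the binding proteins Igfbp2, Igfbp3, Igfbp4, Igfbp5, Igfbp6 and Igfbp7, the growth factor Igf1 and its receptor Igf1r. They are 8 of the 16791 genes in the deposited table and were chosen by name. The choice was made with results of these data in view, so the tests given here place each gene among all genes and are not independent evidence that the family moved. Post-MI endothelial cells held more Igfbp5 and Igf1 transcript, by 2.75 ± 0.34 and 2.73 ± 0.27 on the log2 scale (SE, 4 mice a group), more Igfbp4 and Igfbp3, and slightly more Igfbp7, while Igf1r did not pass the test. Within this endothelium the genes were not spread evenly. Igfbp3 and Igfbp4 were high in cells with the arterial marker Gja4, and Igf1 and Igfbp5 in cells with the venous marker Nr2f2. Post-MI, Igfbp7 was highest in cells with high Plvap, where the ranges of Igf1 and Igfbp5 overlapped those of Nr2f2 cells. Igfbp4, Igfbp5 and Igfbp6 were high post-MI in cells with the endocardial marker Cytl1. Cells with high Plvap or with Cytl1 were too few in healthy hearts to test.

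IGF1 is a secreted growth factor that signals through the receptor tyrosine kinase IGF1R to the PI3K, AKT and MAPK pathways. Most of it travels bound to the IGF-binding proteins, which extend its life, keep it from the receptor or deliver it to the cell surface and matrix, until proteases release it. IGFBP3, the main carrier in the circulation, and IGFBP5 also bind matrix; IGFBP4 is mostly inhibitory and is cut by PAPP-A; IGFBP6 prefers IGF2; and IGFBP7 binds IGFs weakly and is an abundant endothelial matrix protein.

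All 8 mice were adults of the strain Pdgfb-iCreERT2-R26R-Brainbow2.1, in which tamoxifen switches on a Confetti fluorophore in cells that express Cre from the Pdgfb promoter, here vascular endothelium. Each received 150 mg/kg tamoxifen and was killed 21 days later. The 4 MI mice had their left anterior descending (LAD) coronary artery tied off for good 14 days after tamoxifen and were taken 7 days post-MI, whereas the 4 healthy mice had no ligation and no sham operation is described for them. Confetti+ CD31+ podoplanin- cells were sorted from whole ventricles, so infarct, border and remote tissue were pooled, and cells that had not recombined are not represented. Transcripts were counted as unique molecular identifiers (UMIs) with a 3′ droplet assay, which counts 1 tag per transcript molecule, so levels can be set side by side between genes without a correction for length. Values are UMIs of a gene per 1000000 UMIs (CPM) over the endothelial cells of 1 mouse, and for each gene they are listed for healthy mice 227, 228, 239 and 240 and then for MI mice 244, 250, 255 and 256.

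Some libraries shared cells. In healthy mouse 228, 2030 cells carried the barcode and nearly the same UMIs as cells of healthy mouse 239, and 301 cells of healthy mouse 227 were such copies of cells of 228; these, and 2 further copies, were left out as the copy with fewer UMIs, and which mouse the cells came from is not known. Keeping them left 57 of 57 member fold changes on the same side of the threshold. Cells with 3 or more genes of a list for haematopoietic, mural, fibroblast, platelet or lymphatic cells were also set aside, which left 1600 to 3564 endothelial cells a mouse in the healthy group and 3366 to 4773 in the MI group, with 4919725 to 7629966 and 14287550 to 23761898 UMIs. The summed level of 8 endothelial genes, among them Pecam1 and Cdh5, was 6487 to 7245 CPM in healthy and 6530 to 7011 CPM in MI cells. Transcripts of other cell types did move with the groups: the 21 haematopoietic genes, all detected in both groups, summed to 39.0 to 171 CPM in healthy and 293 to 1016 CPM in MI endothelial cells, and the 11 fibroblast genes to 13.8 to 44.3 and 43.7 to 80.6 CPM, with Tcf21 alone at 0 in the healthy group.

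The 8 genes lie on 6 chromosomes of the GRCm38 build. Igfbp2 (chr1:72824503-72852474) and Igfbp5 (chr1:72857932-72874884) lie tail to tail with 5.46 kb and no annotated gene between them, and Igfbp3 (chr11:7206086-7213923) lies in the same way 3.54 kb from Igfbp1, which was not analysed here. Igfbp4 lies at chr11:99041244-99054392, Igfbp6 at chr15:102144362-102149511, Igf1r at chr7:67952827-68233668. Igfbp7 (chr5:77349240-77408041) overlaps Polr2b and Igf1 (chr10:87858265-87937042) overlaps the antisense gene Igf1os, both on the opposite strand; whether strand was used in counting is not given in the sources used here.

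All 8 genes had a start-site window in RefSeq (GRCm38.p6), from 250 bases before to 50 after the start. Those of Igf1, Igfbp4 and Igfbp5 are printed because these 3 genes had the largest fold changes over all endothelial cells, where they reached the cutoff on low counts in all 8 mice. They lie at chr10:87860861-87861160 (Igf1, plus strand), chr11:99040994-99041293 (Igfbp4, plus strand) and chr1:72874816-72875115 (Igfbp5, minus strand). Capitals mark matches, on either strand, to 3 motifs that do not overlap one another: AGGTCA, the half-site of nuclear receptors such as Nr2f2, TATAAA, the TATA box, and GTAAACA, a FoxO site. These matches are descriptions of the window and no binding was measured.
Igf1: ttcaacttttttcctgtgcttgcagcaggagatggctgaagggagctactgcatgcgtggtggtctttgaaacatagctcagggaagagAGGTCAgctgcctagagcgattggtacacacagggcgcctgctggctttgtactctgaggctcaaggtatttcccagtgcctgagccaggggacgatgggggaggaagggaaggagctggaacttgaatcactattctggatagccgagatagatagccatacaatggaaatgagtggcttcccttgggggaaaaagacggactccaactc
Igfbp4: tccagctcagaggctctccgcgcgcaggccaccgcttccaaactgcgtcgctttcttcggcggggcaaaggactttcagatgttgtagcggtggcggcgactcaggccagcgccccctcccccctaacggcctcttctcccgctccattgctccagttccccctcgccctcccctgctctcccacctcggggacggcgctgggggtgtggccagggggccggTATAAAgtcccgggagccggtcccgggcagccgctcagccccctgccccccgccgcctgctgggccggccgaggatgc
Igfbp5: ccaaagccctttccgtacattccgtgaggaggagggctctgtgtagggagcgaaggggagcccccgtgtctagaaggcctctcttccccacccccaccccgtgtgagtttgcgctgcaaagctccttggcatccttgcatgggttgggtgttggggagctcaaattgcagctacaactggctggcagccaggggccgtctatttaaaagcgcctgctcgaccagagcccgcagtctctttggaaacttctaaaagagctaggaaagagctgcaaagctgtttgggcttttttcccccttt

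The Igf1 window held AGGTCA 161 bases before the start, a match that 16.3% of 32851 windows of this length share, and Igf1r held it on the opposite strand 86 bases before its start. Igfbp4 held TATAAA 28 bases before the start and Igfbp6 held it on the opposite strand 148 bases before, against 13.6% of windows. The FoxO letters, found in 3.65% of windows, were in none of the 8 genes, and the windows of Igfbp2, Igfbp3, Igfbp5 and Igfbp7 held none of the 3 motifs.

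The first comparison asked how the family differed between MI and healthy hearts over all endothelial cells. Of 7 members with enough UMIs to test, 5 were called higher post-MI by edgeR's quasi-likelihood test at an adjusted p under 0.05, 0 were called lower and 2 were not called. The background was high, since 37.6% of 12272 genes were called, 18.8% of all in the higher direction. The median log2 fold change was 1.23 over the 7 members and -0.02 over all genes tested. All 7 reached the cutoff on low counts in all 8 mice. Groups of mice did not overlap for 5 members, all higher in MI, where 23.6% of all genes tested had every MI mouse above every healthy mouse.

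Igfbp7 was by far the most abundant binding protein. It stood at 3413, 2982, 3663 and 3532 CPM in the healthy mice and at 5303, 4510, 4749 and 3933 CPM in the MI mice. The groups did not overlap, yet the step was small, with a log2 fold change of 0.36 ± 0.10 (SE, edgeR adjusted p = 0.0189). It was not called once cells were thinned to 1000 UMIs each (0.27, adjusted p = 0.0596), without the Plvap-high and Cytl1 cells, an alternative chosen after seeing the data (0.22, adjusted p = 0.0707), without MI mouse 244 (0.28, adjusted p = 0.0572) or without the male mice, healthy 227 and MI 244 by their Xist counts (0.28, adjusted p = 0.107).

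Igfbp3, the circulating carrier, rose further. Healthy mice held 98.4, 145, 200 and 174 CPM and MI mice 408, 301, 500 and 331 CPM. Every MI mouse was above every healthy mouse, and the log2 fold change was 1.23 ± 0.22 (edgeR adjusted p = 0.00253). Igfbp4, the inhibitory binding protein that PAPP-A cuts, stood at 37.8, 65.5, 72.1 and 48.0 CPM in healthy and 138, 154, 227 and 170 CPM in MI mice. The groups were again apart, with a log2 fold change of 1.53 ± 0.21 (edgeR adjusted p = 0.00086).

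Igfbp5, which binds matrix, had the largest difference of the binding proteins. It was low in the healthy mice, at 9.17, 22.6, 20.7 and 29.7 CPM, and stood at 92.3, 130.5, 223 and 146 CPM in the MI mice. MI mouse 255 was highest and the lowest MI mouse lay above all healthy mice; the log2 fold change was 2.75 ± 0.34 (edgeR adjusted p = 0.000543).

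Igfbp6, the IGF2-preferring member, was scarce and uneven. It gave 1.15, 1.22, 2.88 and 19.1 CPM in healthy mice and 4.22, 10.1, 8.98 and 9.73 CPM in MI mice. Healthy mouse 240 lay above every MI mouse while the other 3 healthy mice lay below them all, and the log2 fold change of 0.28 ± 0.71 was not called (edgeR adjusted p = 0.778). In mouse 240, 137 of 145 Igfbp6 UMIs came from 9 Cytl1 cells, and 3 of those cells held all 137. Without mouse 240 the log2 fold change was 2.08 (edgeR adjusted p = 0.00735), and without the Plvap-high and Cytl1 cells of all mice it was 2.06 (adjusted p = 0.00249). It was -0.060 without healthy mouse 227 and -0.016 without 228. With all mice and classes kept but cells thinned to 1000 UMIs it was 1.85 (adjusted p = 0.0077).

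Igfbp2 was barely detected. There were 0 UMIs in 26265506 healthy UMIs, which allows up to 0.114 CPM when taken as 3 counts (the 95% exact Poisson limit is 0.140 CPM), and 2 UMIs in 83001290 MI UMIs, both in mouse 244. It could not be tested.

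The ligand Igf1 was low in the healthy endothelium, at 3.60, 6.71, 7.73 and 7.89 CPM, and stood at 33.1, 39.1, 66.0 and 47.8 CPM in the MI mice. The groups were far apart and the log2 fold change was 2.73 ± 0.27 (edgeR adjusted p = 0.000194). Haematopoietic cells, which make Igf1 in many tissues, held 184 CPM in the healthy and 190 CPM in the MI group among the cells set aside, at a summed haematopoietic list of 40872 and 34923 CPM. The same list in MI endothelial cells reached at most 1016 CPM. Fewer or more such stray transcripts, and their part in the Igf1 difference, were not tested beyond the stricter removal of cells with 2 or more genes of a list, which kept the call.

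The receptor Igf1r went the other way without passing the test. It stood at 39.8, 39.8, 39.8 and 36.4 CPM in healthy mice and at 24.8, 26.2, 27.1 and 43.8 CPM in MI mice. In MI, 3 mice lay below all healthy mice and mouse 256 above them, for a log2 fold change of -0.45 ± 0.18 (edgeR adjusted p = 0.0746). Without mouse 256 it was -0.67 (adjusted p = 0.000584).

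**Figure D1:**
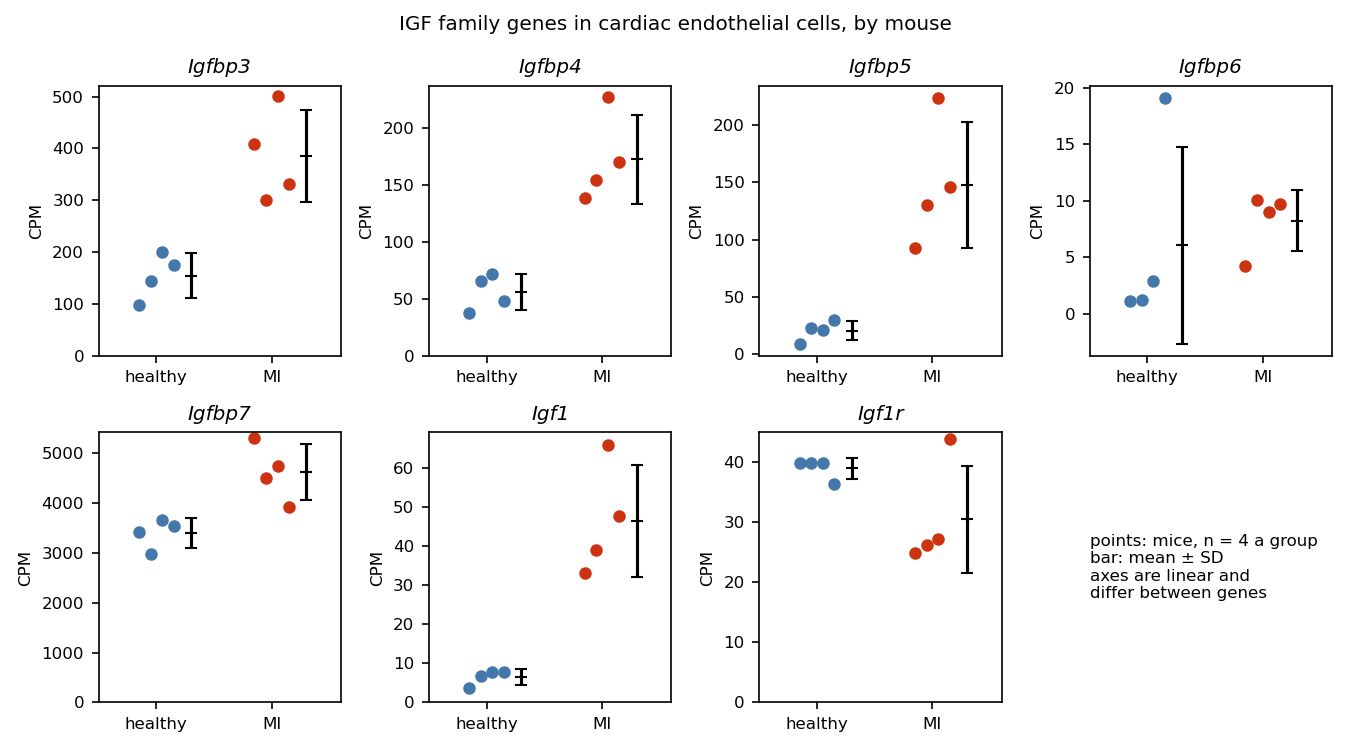
Level of 7 IGF family genes in endothelial cells by mouse, in CPM on linear axes that differ between genes; points are mice, 4 a group, and bars are mean ± SD. The healthy and MI points are apart for Igfbp3, Igfbp4, Igfbp5, Igfbp7 and Igf1, while healthy mouse 240 stands at 19.1 CPM for Igfbp6 and MI mouse 256 at 43.8 CPM for Igf1r.

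The make-up of the binding-protein transcripts shifted with these changes. The 6 binding proteins together went from 3634 ± 323 CPM (SD, n = 4) in healthy to 5338 ± 611 CPM in MI mice, and Igfbp7 made up 93.5% ± 1.59 of them in healthy and 86.6% ± 2.71 in MI mice. Igfbp3 went from 4.22% ± 1.003 to 7.18% ± 1.19 of the binding-protein UMIs, Igfbp4 from 1.54% ± 0.458 to 3.26% ± 0.742 and Igfbp5 from 0.566% ± 0.232 to 2.80% ± 0.998. These shares are descriptions and were not tested.

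The share of cells in which a UMI was found also differed. After thinning each cell to 1000 UMIs, the share of cells with an Igf1 UMI was 0.474% ± 0.211 (SD, n = 4) in healthy and 3.47% ± 1.33 in MI mice, and that of Igfbp5 0.785% ± 0.198 and 4.84% ± 1.99. Igfbp4 was in 4.07% ± 1.20 and 11.02% ± 1.90 of cells, Igfbp3 in 11.9% ± 2.97 and 17.6% ± 1.74, and Igfbp6 in 0.148% ± 0.0237 and 0.625% ± 0.208. For each of these 5 genes the 4 MI mice lay above the 4 healthy mice, and the two-sided exact permutation test gave p = 0.0286, the smallest that 4 against 4 mice allow. In this measure 17.5% of 12272 genes had every MI mouse above every healthy mouse. Igfbp7 was in most cells of both groups, 89.1% ± 2.16 and 89.98% ± 1.86 (exact p = 0.514), and Igf1r in 3.499% ± 0.305 and 2.98% ± 1.13 (exact p = 0.429). Haematopoietic cells of the MI group, thinned alike from a median of 6716 UMIs, held an Igfbp3 UMI in 6.94%, Igfbp5 in 3.20%, Igfbp4 in 11.4%, Igfbp6 in 0.992%, Igfbp7 in 50.3% and Igf1 in 15.6% of cells. The MI endothelial shares of Igfbp4 (9.47% to 13.8% by mouse), Igfbp6 and Igf1 were not above these in the mean. In the healthy group, haematopoietic cells held Igfbp4 at 251 and Igf1 at 184 CPM, against means of 55.8 and 6.48 CPM in endothelial cells. Their shares are therefore no floor of free RNA for Igfbp4 and Igf1. No expression is read from these 3 endothelial shares alone, and the part of free RNA in them was not tested. The Igfbp5 share was above that of haematopoietic cells in the mean. It ran from 2.97% to 7.65% by mouse, so the lowest MI mouse lay below the 3.20% of haematopoietic cells. Of 207 MI mural cells, 0.483% held an Igf1 UMI, which is 1 cell. The Igfbp6 difference lost its call when at least 2 UMIs were asked for (0.0405 percentage points, exact p = 0.257), where that of Igf1r gained one (-0.102 points, exact p = 0.0286), as did that of Igfbp7 without thinning (2.79 points, exact p = 0.0286). Without thinning the Igf1r difference turned to 4.41 points higher in MI (exact p = 0.0286).

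The next comparisons asked in which endothelial cells the family is found. Each cell was thinned to 1000 UMIs and placed by marker UMIs. Cytl1 came first (endocardial-like), then at least 2 Plvap UMIs with no Gja4 UMI (Plvap-high). Other cells were placed by Gja4 (arterial), Nr2f2 (venous) or Car4 (capillary), where only 1 of these markers was present. Cells with Gja4 and at least 2 Plvap UMIs could thus enter the Gja4 class, whereas such cells with Nr2f2 or Car4 and no Gja4 were Plvap-high. Of 26101 cells deep enough, 7464 received a class, and 18637 had none of these UMIs or markers of several classes. Car4 cells numbered 2222 in healthy and 1502 in MI mice, Gja4 cells 557 and 1222, Nr2f2 cells 157 and 557, Plvap-high cells 8 and 1091, and Cytl1 cells 33 and 115. Between 41.9% (Plvap-high) and 88.7% (Nr2f2) of a class sat at the lowest UMI number that admits a cell, so classes are ranges of marker UMIs. Other known markers were highest in the class they mark for 4 of 4 genes in Car4 cells and 5 of 6 in Gja4 cells of the MI group, and for 5 of 5 in Cytl1 cells. They were so for 3 of 6 in Nr2f2 and for 1 of 3 in Plvap-high MI cells, and for 5 of 6 in healthy Nr2f2 cells. Haemoglobin genes were among the 10 genes leading the Nr2f2 class in both groups. The lymphatic gene Ccl21a was among them in the MI group but not in the healthy group. The classes are therefore named by their marker. Plvap-high and Cytl1 cells fell short of 20 cells in each healthy mouse, so these 2 classes were tested only post-MI, Cytl1 in the 3 mice with enough cells.

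Igfbp3 was highest in Gja4 cells among the classes that could be tested in each condition. In healthy mice it stood at 171, 306, 388 and 323 CPM in Gja4 cells, against 81.9 to 167 CPM in Car4 and 24.8 to 139 CPM in Nr2f2 cells, a log2 fold change of 1.503 ± 0.27 against the mean of the other classes (edgeR adjusted p = 4.7e-05). It was 1 of 3 members called in this contrast, 2 higher and 1 lower, where 11.4% of 9710 genes were called. The lower one, Igf1, was not called without healthy mouse 239 (-2.60, edgeR adjusted p = 0.125). With stricter classes (at least 2 marker UMIs) Igf1 turned to 0.53 (edgeR adjusted p = 0.934), while Igfbp3 kept its call at 0.83. The 8 healthy Plvap-high cells pooled held 17 Igfbp3 UMIs, or 520 CPM (95% exact Poisson interval 303 to 832), all from 2 cells of healthy mouse 239, so the pool without that mouse holds 0. Post-MI the level in Gja4 cells was 1119, 643, 1104 and 691 CPM, above every mouse of every other class, and the log2 fold change was 1.94 ± 0.15 (adjusted p = 3.06e-14; 16.3% of genes called). Plvap-high cells came next at 363 to 484 CPM, and the ranges of Cytl1 (116 to 253), Nr2f2 (98.6 to 435) and Car4 cells (138 to 204 CPM) overlapped. Without MI mouse 255, whose Nr2f2 cells held 435 CPM, the log2 fold change of Igfbp3 in Nr2f2 cells against the other classes was -1.44, against -0.74 with it, and it was not called without MI mouse 244 (-0.50, adjusted p = 0.0942), 250 (-0.55, 0.125) or 256 (-0.58, 0.0637).

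Igfbp4 was high in the Gja4 cells of the healthy heart. Gja4 cells held 251, 347, 297 and 277 CPM, where Car4 cells held 10.4 to 19.9 CPM and Nr2f2 cells 7.42 to 61.6 CPM. All 4 Gja4 values lay above every Car4 and Nr2f2 value, and the log2 fold change against these was 3.71 ± 0.21 (edgeR adjusted p = 9.7e-19). The 33 healthy Cytl1 cells pooled held 394 CPM (46 UMIs, 95% exact Poisson interval 288 to 525) and the 8 Plvap-high cells 428 CPM (14 UMIs, 234 to 718), too few cells to test. Post-MI the Cytl1 cells held 450 to 709 CPM, Gja4 cells 384 to 528 CPM and Plvap-high cells 270 to 451 CPM, ranges that overlap from each to the next, against 81.3 to 132 CPM in Nr2f2 and 47.4 to 66.4 CPM in Car4 cells. Against the other classes it was higher by 1.54 ± 0.15 in Cytl1, 1.25 ± 0.09 in Gja4 and 0.94 ± 0.09 in Plvap-high cells, with adjusted p of 8.63e-11, 1.45e-14 and 9.92e-11.

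Igfbp5 had its highest mean level post-MI in Cytl1 cells and, after these, in Nr2f2 cells. The 3 MI mice with enough Cytl1 cells held 2083, 556 and 2305 CPM there, and the MI Nr2f2 cells 416, 334, 838 and 604 CPM. These ranges overlap through mouse 255. Plvap-high cells held 182 to 490 CPM, a range that overlaps that of Nr2f2 cells. In MI mouse 250 the order was turned, with 490 CPM in Plvap-high and 334 CPM in Nr2f2 cells. Gja4 cells held 46.3 to 73.2 CPM and Car4 cells 8.99 to 31.3 CPM. The log2 fold change against the other classes was 3.57 ± 0.23 in Cytl1 cells (edgeR adjusted p = 8.35e-16; 6.17% of genes called) and 1.88 ± 0.19 in Nr2f2 cells (adjusted p = 1.5e-09; 9.41% of genes called). In healthy Nr2f2 cells, at 31.1 to 133 CPM, it was 4.51 ± 1.03 (adjusted p = 0.00276; 6.18% of genes called), a fit against classes with 20 and 3 UMIs in all that was not called without healthy mouse 239 (3.83, adjusted p = 0.156). The 33 healthy Cytl1 cells pooled held 126 Igfbp5 UMIs, or 1078 CPM (95% exact Poisson interval 898 to 1284, which covers counting error only). Of these, 98 came from the 9 cells of mouse 240, and the level was 356 CPM without that mouse and 1763 CPM without mouse 239.

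Igfbp6 was highest in Cytl1 cells, at 236, 25.3 and 296 CPM in the 3 MI mice, against 1.53 to 18.1 CPM in the other MI classes. The log2 fold change was 4.61 ± 0.35 (edgeR adjusted p = 3.68e-13; 5.28 without MI mouse 255), and the 42, 5 and 36 UMIs behind these levels came from 7, 3 and 4 cells. The fibroblast list was also highest in this class, 469 to 1274 CPM against 12.2 to 220 CPM in the other MI classes, and cells of the fibroblast list that were set aside held Igfbp6 at 266 CPM and Igfbp4 at 863 CPM post-MI. They held Igfbp5 at 76.0 CPM. The part of fibroblast transcripts in the Igfbp4, Igfbp5 and Igfbp6 levels of Cytl1 cells was not tested.

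Igfbp7, the abundant matrix protein, was highest in Plvap-high cells post-MI, at 11060, 8250, 7921 and 5873 CPM, and lowest in Cytl1 cells, at 2190, 1916 and 782 CPM. The log2 fold changes against the other MI classes were 1.39 ± 0.08 (edgeR adjusted p = 6.96e-18; 23.7% of genes called) and -1.46 ± 0.12 (adjusted p = 1.18e-12; -0.56 where classes were set from whole cells). In healthy hearts Car4 cells held the most, 3267 to 4171 CPM, and of the 3 classes with enough cells Nr2f2 cells held the least, 2000 to 2302 CPM, overlapping Gja4 cells at 2261 to 2992 CPM. The few healthy Plvap-high and Cytl1 cells held less when pooled, 948 CPM (95% exact Poisson interval 644 to 1345) and 1198 CPM (1008 to 1414), and 204 and 731 CPM without healthy mouse 239. The healthy Car4 difference was 0.74 ± 0.10 (adjusted p = 2.12e-07; 8.26% of genes called).

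The level of Igf1 was high in Nr2f2 cells in both conditions and in Plvap-high cells post-MI. Healthy Nr2f2 cells held 18.6, 46.0, 81.6 and 61.6 CPM, against 3.06 to 5.21 CPM in Car4 and 0 to 3.19 CPM in Gja4 cells. Every healthy mouse showed this order, and the log2 fold change was 4.35 ± 0.64 (edgeR adjusted p = 3.34e-06; 3.65 without healthy mouse 239). Post-MI the Nr2f2 cells held 132, 122, 167 and 136 CPM and the Plvap-high cells 50.2, 114, 110 and 156 CPM, ranges that overlap. Cytl1 cells (8.23 to 39.4 CPM), Car4 cells (7.64 to 19.6 CPM) and Gja4 cells (5.89 to 16.9 CPM) were all lower. The log2 fold changes were 2.44 ± 0.17 in Nr2f2 (adjusted p = 2.76e-14) and 1.87 ± 0.16 in Plvap-high cells (adjusted p = 5.23e-13). The haematopoietic list was at like levels in these classes, 286 to 500 CPM in Nr2f2, 306 to 531 CPM in Plvap-high, 306 to 472 CPM in Car4 and 267 to 580 CPM in Gja4 MI cells. The part of haematopoietic transcripts in the Igf1 levels of these classes was not tested.

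In Car4 cells post-MI, 5 of 7 tested members were called lower than in the other classes and 0 higher, where 18.8% of genes were called and 9.05% were called lower: Igfbp5 (-4.20 ± 0.30), Igfbp6 (-2.81 ± 0.42), Igfbp4 (-2.38 ± 0.13), Igf1 (-1.37 ± 0.26) and Igfbp3 (-0.93 ± 0.18). Igfbp6 stood at 1.53 to 3.02 CPM in these Car4 cells and entered the fit only through other classes where it was higher. Its place in the count is a description. For the other members called lower, the edgeR adjusted p ran from 3.21e-19 for Igfbp4 to 0.000107 for Igfbp3. The Igf1 call was lost with stricter classes (-1.09, adjusted p = 0.087). Igfbp7 was not called (0.20 ± 0.09, adjusted p = 0.103). In Plvap-high cells, by contrast, 5 of 7 were called higher and 0 lower, against 12.9% of genes called higher there. With DESeq2, Igfbp3 (adjusted p = 0.153) and Igfbp5 (0.155) were not called in Plvap-high cells, and with stricter classes the Igfbp3 contrast was -0.27.

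Igf1r was not marked by any class. It was not called in any of the 8 class contrasts, and its class means ran from 39.8 to 47.2 CPM in healthy and from 27.9 to 48.6 CPM in MI mice. Its widest class contrast, 0.63 ± 0.30 in MI Cytl1 cells, had an edgeR adjusted p of 0.295.

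**Figure D2:**
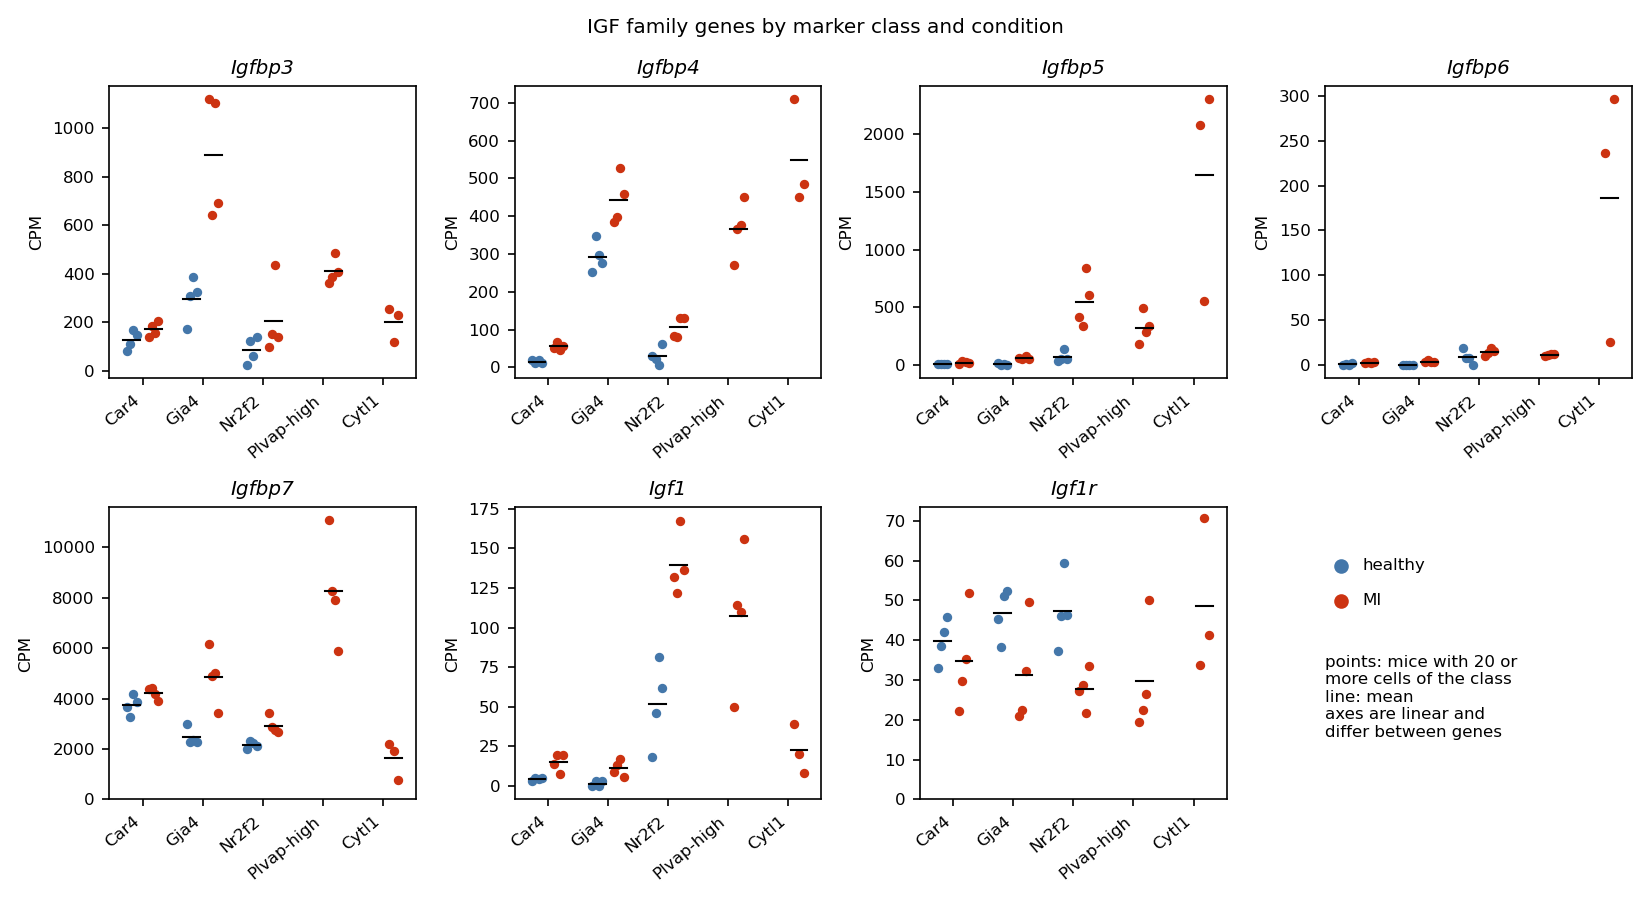
Level of 7 IGF family genes by marker class and condition, in CPM on linear axes that differ between genes; points are mice with at least 20 cells of the class and lines are means. Igfbp3 peaks in Gja4 cells, Igf1 in Nr2f2 and Plvap-high cells, Igfbp7 in Plvap-high cells, and Igfbp5 and Igfbp6 in Cytl1 cells, where the 3 mice differ widely.

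Seen from the transcripts, Plvap-high cells were 6.94% ± 4.83 (SD, n = 4) of the MI cells deep enough to place but held 19.95% ± 5.38 of Igf1 UMIs, 19.5% ± 5.13 of Igfbp5 UMIs and 19.3% ± 5.90 of Igfbp4 UMIs. Nr2f2 cells were 3.53% of cells and held 11.6% ± 2.52 of Igf1 and 14.2% ± 4.74 of Igfbp5 UMIs. Gja4 cells, 7.78% of cells, held 17.2% ± 3.69 of Igfbp3 and 19.4% ± 3.47 of Igfbp4 UMIs. Cytl1 cells were 0.737% of cells and held 7.85% ± 5.65 of Igfbp5 and 11.8% ± 12.01 of Igfbp6 UMIs, the latter from 1.0% in mouse 244 to 25.9% in mouse 256. Cells without a class, 71.8% of all, held 53.9% to 70.1% of the UMIs of the 7 genes, so most transcripts were outside the classes. Cells differ in total UMIs, so these shares are not levels.

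**Figure D3:**
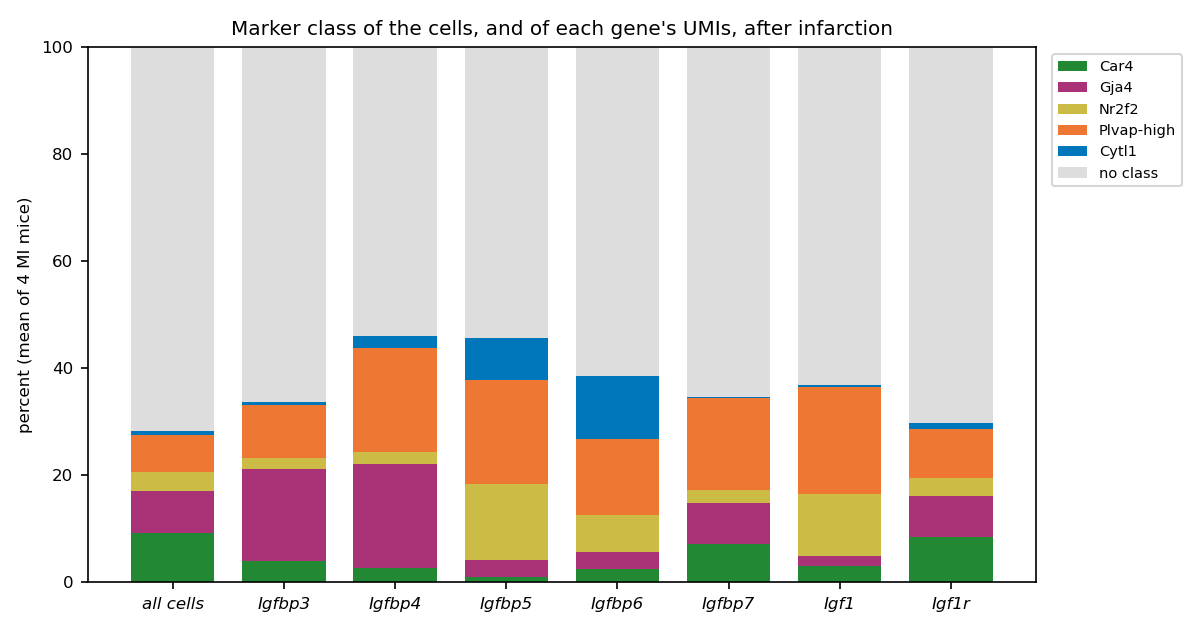
Share of MI endothelial cells in each marker class (first bar) and share of each gene's UMIs found in that class, in percent, as the mean of 4 MI mice. Igf1r (9.01% in Plvap-high cells) resembles the cells, whereas Igfbp4, Igfbp5 and Igf1 hold about 20% of their UMIs in Plvap-high cells.

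The MI and healthy groups were then compared within classes, so that a change in the shares of these classes does not enter. A change in the cells that make up a class can still enter and was not tested. In Nr2f2 cells, for example, the lymphatic list ran from 38.4 to 316 CPM in healthy and from 42.8 to 874 CPM in MI mice. In Car4 cells 3 of 6 tested members were called higher and 0 lower, where 16.0% of 8904 genes were called and 7.64% were called higher and 8.38% lower. Igfbp5 (20 healthy UMIs) and Igf1 (22) reached the cutoff on low counts in 0 healthy and 4 MI mice, so they could enter the test only by being high in MI, and the count is a description. Igfbp4 was higher by 1.77 ± 0.20 (log2, SE; edgeR adjusted p = 0.000172), while the fitted differences of Igfbp5 (2.12 ± 0.48) and Igf1 (1.79 ± 0.34) are given without a p. Igfbp4 stood at 10.4 to 19.9 CPM in healthy and 47.4 to 66.4 CPM in MI Car4 cells, with no overlap. Igfbp3 (0.37 ± 0.19, adjusted p = 0.217), Igfbp7 (0.10 ± 0.10, adjusted p = 0.54) and Igf1r (-0.29 ± 0.24, adjusted p = 0.444) were not called. The Igfbp5 value was 1.51 without MI mouse 250 and 0.75 where classes were set from whole cells.

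In Gja4 cells 4 of 5 tested members were called higher, where 14.0% of 7984 genes were called and 6.6% were called higher and 7.39% lower. Igfbp5 is 1 of the 4 and reached the cutoff on low counts in 0 healthy and 4 MI mice, so this count too is a description. Igfbp3 rose from 171 to 388 CPM in healthy to 643 to 1119 CPM in MI mice (1.48 ± 0.21, edgeR adjusted p = 0.000209) and Igfbp7 from 2261 to 2992 CPM to 3441 to 6151 CPM (0.93 ± 0.14, adjusted p = 0.000443). Igfbp5 went from 3 UMIs in all healthy Gja4 cells to 363 in the MI ones, a pooled ratio of 28.6 with a 95% counting interval of 9.70 to 139 (fitted log2 fold change 4.67, or 5.94 without healthy mouse 227, given without a p). Igfbp4, already high, was higher by 0.53 ± 0.14 (adjusted p = 0.0189), a call lost with stricter classes (0.49, adjusted p = 0.136) and without healthy mouse 227 (0.47, adjusted p = 0.053), healthy mouse 240 (0.50, adjusted p = 0.0593) or MI mouse 255 (0.43, adjusted p = 0.0711). Igf1r was not called (-0.68 ± 0.29, adjusted p = 0.131), but was without MI mouse 256 (-0.97, adjusted p = 0.0117). Igf1 and Igfbp6 were too scarce to test here, with 2 and 0 UMIs in healthy Gja4 cells.

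In Nr2f2 cells 3 of 6 tested members were called higher, where 8.46% of 4600 genes were called and 3.43% were called higher and 5.02% lower. Igfbp4 reached the cutoff on low counts in 1 healthy and 4 MI mice and Igf1r in 4 healthy and 1 MI mouse, so the count is again a description. Igfbp5 went from 31.1 to 133 CPM in healthy to 334 to 838 CPM in MI mice (2.99 ± 0.37, edgeR adjusted p = 0.000416; 3.63 without healthy mouse 239). Igf1 went from 18.6 to 81.6 CPM to 122 to 167 CPM (1.34 ± 0.29, adjusted p = 0.00891), and Igfbp4 from 7.42 to 61.6 CPM to 81.3 to 132 CPM (1.66 ± 0.40, given without a p). In each of the 3 genes the MI mice lay above the healthy mice. The share of all genes with this order was not counted within the class, so this is a description. Igf1 was not called without the male mice (1.05, adjusted p = 0.0575). Igfbp3 (1.20 ± 0.52, adjusted p = 0.179; 0.52 without MI mouse 255) and Igfbp7 (0.31 ± 0.13, adjusted p = 0.161) were not called, but Igfbp7 was when the class was set by Nr2f2 alone (0.63, adjusted p = 0.00978). The fitted difference of Igf1r, -0.92 ± 0.32, is given without a p.

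**Figure D4:**
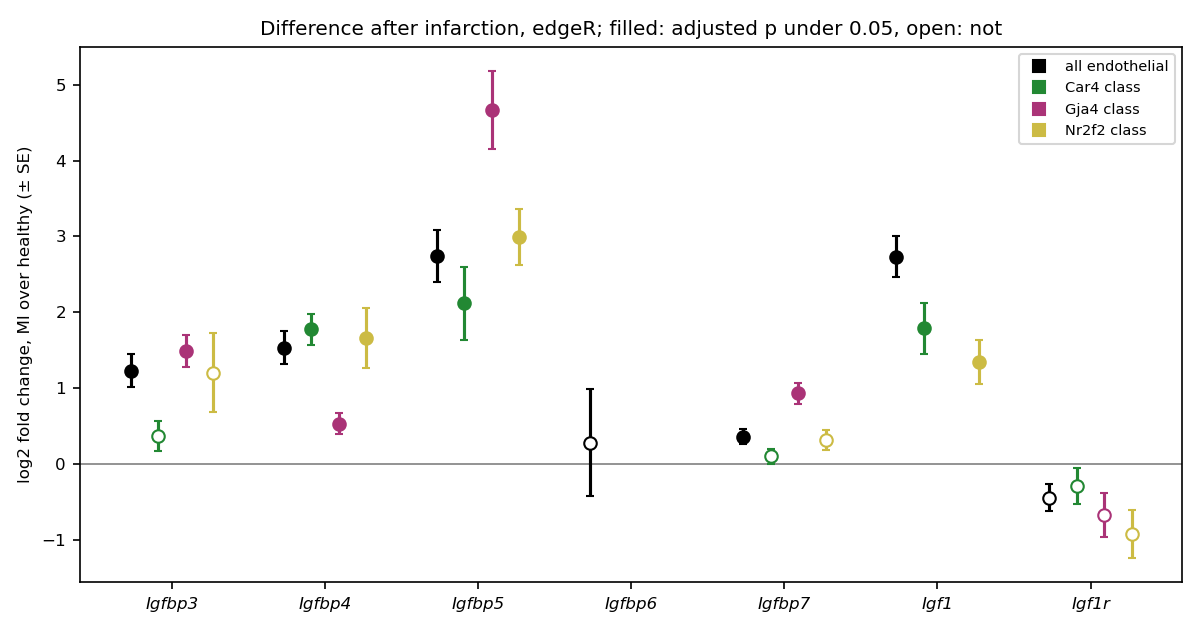
Log2 fold change of MI over healthy mice (± SE) for 7 IGF family genes, over all endothelial cells and within the Car4, Gja4 and Nr2f2 classes; filled points have an edgeR adjusted p under 0.05. Igfbp5 is called in all 4 fits, though Igfbp5 in Car4 and Gja4 cells and Igf1 in Car4 cells reached the cutoff on low counts in 0 healthy mice and Igfbp4 in Nr2f2 cells in 1, and Igf1r in Nr2f2 cells did so in 1 MI mouse, so these points are descriptions; Igfbp4 is smallest in Gja4 cells (0.53) and Igfbp7 largest there (0.93), and Igf1r lies below 0 in all 4 without a call.

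Whether the MI difference itself differed between Car4, Gja4 and Nr2f2 cells was tested as an interaction. It was called for 0.762% of 9710 genes and for 2 of 7 members, Igfbp7 (edgeR F test, adjusted p = 0.0101) and Igfbp4 (adjusted p = 0.0105). The Igfbp7 difference was larger in Gja4 than in Car4 cells by 0.79 ± 0.16 (adjusted p = 0.00484; 0.628% of genes called in this term), and the Igfbp4 difference was smaller by 1.26 ± 0.26, as the fitted term of -1.26 gives (adjusted p = 0.00936). The Igfbp3 term, 1.10 ± 0.31, had an adjusted p of 0.105, and the Igfbp3 interaction (F test, adjusted p = 0.193) was called without MI mouse 255 (0.0286) or 256 (0.042). No member was called as different between Nr2f2 and Car4 cells (0.0824% of genes called). The Igfbp4 call was lost without healthy mouse 228 (adjusted p = 0.137) or 239 (0.0562), and the Igfbp7 call without healthy mouse 239 (0.102), healthy mouse 240 (0.0651) or MI mouse 244 (0.0707).

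The rest of the IGF pathway was read from lists of 38 further genes, of which 28 could be tested: 4 were called higher, 7 lower and 17 not, where 18.8% of all genes were called in each direction. Among the proteases and their regulators, Htra1, a serine protease that cuts IGF-binding proteins, stood at 15.9 to 30.1 CPM in healthy and 51.7 to 79.1 CPM in MI mice (1.43 ± 0.20, edgeR adjusted p = 0.000831), and Stc2, which inhibits PAPP-A, was called at under 10 CPM. Pappa itself was at 0 in healthy mice and at most 0.0421 CPM in MI mice. Of 10 adaptors 7 could be tested, and Shc1 (0.61 ± 0.09, adjusted p = 0.000922) and Ptpn1, a phosphatase of insulin and IGF receptors (0.25 ± 0.08, adjusted p = 0.038), were higher while Sos1 was lower (-0.49 ± 0.15, adjusted p = 0.0262).

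Of the 15 PI3K, AKT and FoxO genes, 0 were called higher and 6 lower, with a median log2 fold change of -0.28. Among them were the PI3K subunits Pik3cb (-1.04 ± 0.34, edgeR adjusted p = 0.0355), which stood at 30.1 and 31.5 CPM in healthy mice 227 and 228 but at 12.8 and 10.8 CPM in 239 and 240, beside 8.14 to 12.9 CPM in MI mice, and Pik3ca (-0.43 ± 0.13, adjusted p = 0.0226), the kinases Pdpk1 (-0.37 ± 0.09, adjusted p = 0.0127) and Rps6kb1 (-0.28 ± 0.09, adjusted p = 0.0282), and Tsc1, a brake on mTOR (-0.75 ± 0.11, adjusted p = 0.00127). Since 18.8% of all genes were called lower, 6 of 15 is given as a count. Foxo1 stood at 71.8 ± 7.85 CPM (SD, n = 4) in healthy and 69.1 ± 7.45 CPM in MI mice. None of the 3 receptors Igf1r, Igf2r and Insr was called, and Igf2, the other IGF ligand, overlapped between the groups at 13.5 to 38.8 and 15.3 to 37.7 CPM.

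Genes with the most similar pattern were ranked by Pearson correlation of log2(CPM + 10) over 31 sums of 1 mouse and 1 class, among 6256 genes. The sums share mice, depth and class markers, so the values are descriptions. Igf1 was closest to Prcp (r = 0.929) and Nr2f2 (0.859), the latter having defined a class. Igfbp4 was closest to S100a6 (0.941) and Clu (0.934), Igfbp5 to Ahnak2 (0.927) and Bgn (0.923), and Igfbp3 to Itm2c (0.867) and Col18a1 (0.819). Igfbp7 was closest to Scarb1 (0.914), Igfbp6 to Prelp (0.902) and Igf1r to Cbx7 (0.779).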

How the data were processed

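The authors sequenced Chromium Single Cell 3′ libraries and deposited 1 table of raw UMI counts, 16791 genes by 31028 cells of 8 mice, made per the labels with Cell Ranger on mm10 and with Seurat 2.3 in R 3.5.2. Deposited cells had at least 403 detected genes. The 8 genes and all lists were chosen with earlier results of these data known. Copied cells (at least 90% of UMIs matched under 1 shared barcode) and cells with 3 or more genes of another cell type's list were left out; doublets were not called. Counts were summed per mouse, or per mouse and class with at least 20 cells, and tested with edgeR 4.0.16 (TMM, filterByExpr, quasi-likelihood F test, Benjamini-Hochberg over all genes tested) in R 4.3.3. Each mouse is 1 replicate; class contrasts kept the mouse as a block. Since 2 classes lacked cells in healthy mice, class contrasts were made within each condition and not averaged over conditions as planned. DESeq2, other scalings, filters, thinning to 1000 UMIs, class rules and leaving out mice were the alternatives. The named genes were the 8 members, at most 10 other pathway genes called at a mean of 10 CPM or more, and, per member above 20 CPM in mean, the genes of most similar pattern. 1 pathway gene that the rule names is not reported here. On simulated counts for the comparison of all endothelial cells, run on 12332 genes, 91.9% of genes changed 2-fold were called. The simulation gave every gene the same spread and changed few genes, so this share does not hold for genes that vary more between mice. Depth was 4919725 to 23761898 UMIs a mouse; intervals cover counting error only. Sequences are from RefSeq, coordinates from GENCODE vM21.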

Additional observations from a re-analysis of the deposited data

Results flagged for a closer look

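Values that stood far from the others of their group were looked for in each group of 4 mice by the gap to the nearest value relative to the range, which flags about 1 in 20 groups by chance. In all endothelial cells, the high Igfbp6 level of healthy mouse 240 (19.1 CPM), the high Igf1r level of MI mouse 256 (43.8 CPM), the low Igf1r level of healthy mouse 240 (36.4 CPM beside 39.8 CPM in the other 3) and the only Igfbp2 level above 0, in MI mouse 244 (0.0852 CPM, 2 UMIs), stood apart. Within classes, the values that stood apart were Igfbp2 in MI Car4 cells of mouse 244 (1.38 CPM), Igfbp3 in MI Nr2f2 cells of mouse 255 (435 CPM), Igfbp5 in healthy Gja4 cells of mouse 227 (10.1 CPM, 2 UMIs), Igfbp5 in healthy Nr2f2 cells of mouse 239 (133 CPM, 18 UMIs), Igfbp6 in MI Gja4 cells of mouse 250 (5.24 CPM, 7 UMIs) and Igfbp7 in healthy Gja4 cells of mouse 227 (2992 CPM).

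The difference between MI and healthy mice itself differed between Car4, Gja4 and Nr2f2 cells for Igfbp4 (edgeR F test, adjusted p = 0.0105) and Igfbp7 (adjusted p = 0.0101).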

How the results depend on the processing

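Over all endothelial cells, Igfbp3, Igfbp4, Igfbp5 and Igf1 kept their direction and their call in 17 of 17 alternatives, with log2 fold changes of 1.02 to 1.37, 1.27 to 1.68, 2.19 to 3.03 and 2.29 to 2.87. Of 897 member values under an alternative, 808 kept direction and side of the threshold. No paired analysis was possible because the healthy and MI mice share no replicate numbers.

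Igfbp6 ranged from -0.060 (without healthy mouse 227) to 2.08 (without healthy mouse 240, adjusted p = 0.00735) when each mouse was left out in turn, and was also below 0 without healthy mouse 228 (-0.016). With stricter classes (at least 2 marker UMIs, 3 for Plvap), the contrasts of Gja4 cells turned for Igf1 in healthy (0.53) and for Igfbp5 (0.19) and Igfbp7 (-0.68) in MI mice, as did Igfbp3 in Plvap-high cells (-0.27); too few Nr2f2 and Cytl1 cells then remained to be contrasted, so the classes compared differed. In shares of cells, Igf1r turned to 4.41 percentage points higher in MI when cells were not thinned, with MI cells deeper than healthy ones, and Igfbp7 ranged from -0.14 to 1.73 points over mice left out. With any 1 mouse left out, the smallest exact p found for shares was 0.0571, so no share was then under 0.05.

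Counts of genes called moved more. All endothelial cells gave 4615 genes, 2654 with thinning and 2528 without the male mice, an alternative chosen after seeing the data. Car4, Gja4 and Nr2f2 cells gave 1426, 1117 and 389 genes for MI against healthy. They gave 183 (Car4) and 294 (Gja4) with stricter classes, 2450, 1949 and 638 with classes from whole cells, 591, 625 and 119 without the male mice, and 584 in Nr2f2 cells set by their own marker alone. Over mice left out they gave 771 to 1716, 687 to 1281 and 194 to 459. Class contrasts with classes from whole cells gave 1280 (Car4), 1709 (Gja4) and 1279 (Nr2f2) genes in healthy and 2738 (Car4) and 1785 (Nr2f2) in MI mice, and healthy Gja4 cells gave 569 with stricter classes. Over mice left out, Nr2f2 contrasts gave 351 to 635 in healthy and 574 to 919 in MI mice, and the interaction 29 to 127. The causes were not tested. Some contrasts kept their call but moved by over 1.5 times. With stricter classes these were Igfbp3 in healthy Gja4 (0.83) and MI Car4 cells (-1.54), Igfbp7 (1.17) and Igfbp4 (-5.11) in healthy Car4 cells, Igfbp4 in MI Gja4 cells (2.18), and Igf1 (3.41) and Igfbp5 (3.46) in Plvap-high cells. With classes from whole cells they were Igf1 (1.54), Igfbp3 (-1.53) and Igfbp7 (-0.96) in MI Nr2f2, Igfbp6 in MI Gja4 (-1.34) and Igfbp7 in Cytl1 cells (-0.56). With Nr2f2 alone setting the class, Igfbp4 in MI Nr2f2 cells was -0.58, and Igfbp7 there lost its call (-0.14, adjusted p = 0.411). With DESeq2, Igfbp3 (0.60, adjusted p = 0.153) and Igfbp5 (0.90, adjusted p = 0.155) were not called in Plvap-high cells, nor Igfbp3 in MI Nr2f2 cells (-0.83, adjusted p = 0.0659).

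Healthy libraries held fewer UMIs than MI libraries, so low genes such as Igfbp6 and Igf1 rest on few UMIs in healthy classes. Leaving mice out of the pooled healthy Plvap-high and Cytl1 cells was also chosen after seeing the data.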
